A study of Mus musculus with 7 samples.

Results

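In the tumor of the 4T1 line, 132 of 1751 cells carried high levels of the interferon-induced chemokine transcripts Cxcl9 and Cxcl10. The series compared single tumor cells of 4 mouse mammary tumor models in 7 libraries with 12168 cells, of which 1 library was the 4T1 tumor. A cell was taken as a member when the UMIs of Cxcl9 and Cxcl10 together reached 10 per 10,000 UMIs of that cell, where a UMI (unique molecular identifier) counts each captured transcript once. Members were therefore chosen on the levels of these 2 genes, which are given below only as a description. They were set against 969 cells of the same tumor without a UMI of either gene, and 650 cells lay between.

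4T1 is a BALB/C mammary tumor line. It was transduced with a GFP lentivirus, transplanted into the mammary gland of adult BALB/C mice and harvested untreated at about 1000 mm3. The dissociated tumor was sorted for CD24+ cells without CD31, CD45 or Ter119, a gate that keeps epithelial cells and removes endothelial cells, leukocytes and red cells. The other libraries were 2 tumors each of K14-Cre mice with floxed Brca1 and Trp53 alleles (Brca1 F/F, Trp53 F/F, called BRCA1-null), of MMTV-Neu mice (Neu) and of transplants of the FF99WT line from an MMTV-PyMT tumor (PyMT), sorted with the same gate. All of these were on the FVB background, unlike 4T1. The paper describes the Neu A tumor and the tumor behind FF99WT as carrying floxed FIP200 alleles without Cre recombinase. All members came from 1 tumor of 1 line, so no difference between tumors could be tested. Intervals and floors below cover counting error only.

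Interferon gamma from T and NK cells acts through its receptor and the kinases Jak1 and Jak2, whereas type I interferons act through Ifnar1 and Ifnar2 and through Stat2 and Irf9. Both pathways induce interferon regulatory factors, antiviral genes and antigen presentation genes. Cxcl9 and Cxcl10 bind CXCR3, the receptor by which activated T and NK cells enter inflamed tissue. Cxcl9 is known mainly as a target of interferon gamma, whereas Cxcl10 is also induced by type I interferons and NF-kB.

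Levels of the chemokines formed a continuous range rather than separate classes. The sum of both genes in members ran from 10.3 through a median of 19.4 to 209 per 10,000 UMIs. Cxcl10 alone had a median of 12.6 and a highest value of 125 per 10,000 UMIs, and Cxcl9 had a median of 7.04 and a highest value of 83.2. UMIs of both genes were found in 112 members, of Cxcl10 only in 14 and of Cxcl9 only in 6. The cells just below the threshold stood at 9.91 and 9.69 per 10,000 UMIs, and the lowest members at 10.3 and 10.4. Between 8 and 10 per 10,000 UMIs lay 28 cells that were left out, and 22 members lay between 10 and 12. The threshold thus cut through a dense part of the range. Members held 8.90% of all UMIs of the tumor but 62.2% of its 3094 Cxcl9 UMIs and 76.4% of its 4679 Cxcl10 UMIs. In 3 members the call rested on fewer than 5 chemokine UMIs, and 87 members had 20 or more.

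**Figure D1:**
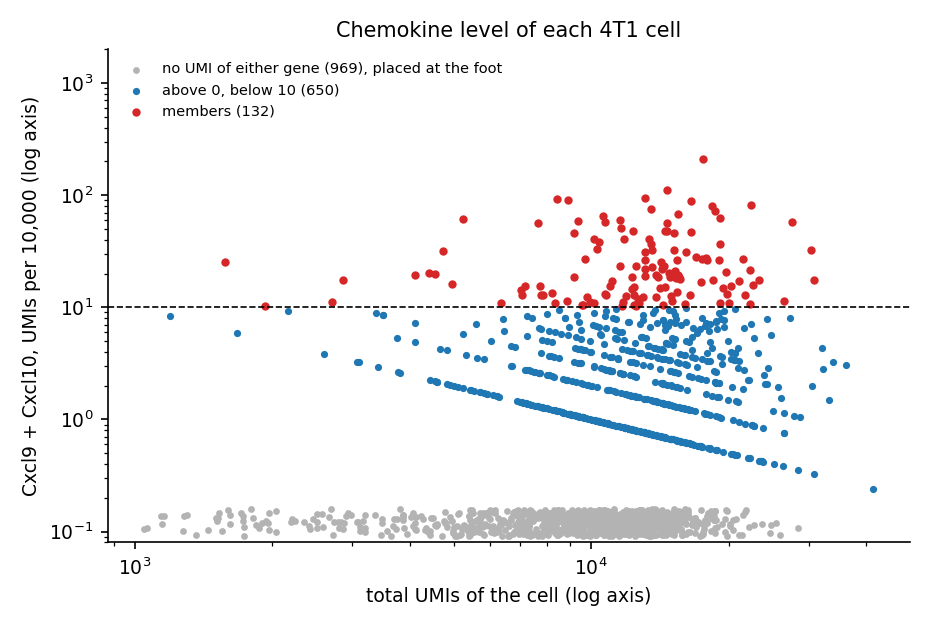
Each point is a 4T1 cell, with its total UMIs on the horizontal axis and the UMIs of Cxcl9 and Cxcl10 per 10,000 on the vertical axis, both logarithmic, and the dashed line is the threshold of 10. The 132 members lie above the line over the whole range of depth, the 650 cells between run up to the line without a gap, and the 969 cells without a UMI are spread out at the foot, where height has no meaning.

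Members were deeper than the cells without a chemokine UMI, with medians of 13507 and 10005 UMIs. The median share of mitochondrial UMIs was 3.56% in members and 3.70% in the cells without a UMI. Of the 132 members, 127 also passed the stricter cell filters of the study and 1 was called a doublet by Scrublet. Barcode sequences shared with another library were found for 28 of the 1751 cells and for 1 member. To remove the gap in depth, each member was paired with the comparison cell nearest in total UMIs, which gave 131 pairs with medians of 13494 and 13490 UMIs and no pair more than 7.85% apart. Unless stated, ratios below compare the summed UMIs of the 131 members with those of the 131 paired cells, each per 1000000 UMIs of its class.

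Windows of 300 bases around the RefSeq transcription start (GRCm38.p6, 250 bases before to 50 from the start on, given 5′ to 3′ on the strand of the gene) are shown for both chemokines, for Irf8 and for 3 response genes, because the gene groups described below are known targets of factors that bind such elements. Capitals mark matches on either strand to the core of the interferon-stimulated response element (ISRE, GAAA and again GAAA with any 2 bases between), to the gamma-activated site (GAS, TTC and GAA with any 3 bases between) or to the NF-kB element (kB, GGG and TTCC with any 3 bases between). Matches describe letters only and show no binding.
Cxcl9, chr5:92328030-92328329, minus strand: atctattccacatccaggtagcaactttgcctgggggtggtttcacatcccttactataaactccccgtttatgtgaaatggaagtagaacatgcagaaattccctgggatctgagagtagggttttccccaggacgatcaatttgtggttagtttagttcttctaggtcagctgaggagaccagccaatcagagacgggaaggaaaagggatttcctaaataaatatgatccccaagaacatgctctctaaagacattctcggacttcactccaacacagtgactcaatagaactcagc
Cxcl10, chr5:92348840-92349139, minus strand: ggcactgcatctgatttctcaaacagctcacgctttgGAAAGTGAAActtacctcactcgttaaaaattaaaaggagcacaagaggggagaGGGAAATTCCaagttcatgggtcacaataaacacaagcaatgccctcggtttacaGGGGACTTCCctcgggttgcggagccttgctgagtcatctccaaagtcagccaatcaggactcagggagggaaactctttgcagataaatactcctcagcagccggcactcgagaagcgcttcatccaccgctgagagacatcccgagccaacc
Irf8, chr8:120736108-120736407, plus strand: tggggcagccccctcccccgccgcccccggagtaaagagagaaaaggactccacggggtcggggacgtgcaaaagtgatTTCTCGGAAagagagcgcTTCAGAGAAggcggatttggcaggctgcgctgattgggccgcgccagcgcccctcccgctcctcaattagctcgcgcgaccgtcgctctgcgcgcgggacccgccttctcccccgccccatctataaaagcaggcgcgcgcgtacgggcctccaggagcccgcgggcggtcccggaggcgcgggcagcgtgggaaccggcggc
Gbp2, chr3:142620413-142620712, plus strand: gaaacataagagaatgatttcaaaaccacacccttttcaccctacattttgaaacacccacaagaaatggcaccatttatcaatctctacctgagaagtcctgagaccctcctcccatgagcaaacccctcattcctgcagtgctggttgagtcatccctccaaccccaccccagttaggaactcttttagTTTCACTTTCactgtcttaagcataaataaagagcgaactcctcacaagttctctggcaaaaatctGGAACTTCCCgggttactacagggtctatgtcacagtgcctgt
Igtp, chr11:58199306-58199605, plus strand: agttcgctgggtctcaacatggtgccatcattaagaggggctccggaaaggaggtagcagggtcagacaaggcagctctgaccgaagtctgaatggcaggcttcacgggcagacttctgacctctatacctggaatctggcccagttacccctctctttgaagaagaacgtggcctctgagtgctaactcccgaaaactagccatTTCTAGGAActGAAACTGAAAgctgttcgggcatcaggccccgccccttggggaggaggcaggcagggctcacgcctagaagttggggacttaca
Ifit1, chr19:34640639-34640938, plus strand: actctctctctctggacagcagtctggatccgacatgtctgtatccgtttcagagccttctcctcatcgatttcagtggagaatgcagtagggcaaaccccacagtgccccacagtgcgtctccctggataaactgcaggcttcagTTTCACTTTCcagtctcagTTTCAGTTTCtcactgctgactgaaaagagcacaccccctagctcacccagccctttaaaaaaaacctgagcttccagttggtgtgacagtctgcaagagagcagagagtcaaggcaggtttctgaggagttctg
In these windows Cxcl10 had an ISRE core that begins 213 bases before the start and kB letters at 159 and 104 bases before it. The Cxcl9 window had none of the 3 strings, which says nothing of sites outside the window or with other letters. Irf8 had GAS letters at 171 and 153 bases before the first of its 2 listed starts, which is the window shown. Ifit1 had ISRE cores at 104 and 85 bases before the start, Gbp2 had 1 at 59 bases and kB letters from 7 bases after the start, and Igtp had 1 at 34 bases beside a GAS match at 45 bases.

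Over all cells of each tumor, the chemokines were most abundant in 4T1 and nearly missing in PyMT and Neu. Their summed level was 385 UMIs per 1000000 UMIs of the library (UPM, 95% Poisson interval 376 to 393) in 4T1. It was 107 (98.8 to 116) and 104 (99.9 to 107) UPM in BRCA1-null A and B. In PyMT A and B it was 2.10 and 0.398, and in Neu A and B 1.36 and 0.475 UPM. The 2 chemokines also differed in balance, since Cxcl9 made up 39.8% of their UMIs in 4T1 but 5.35% and 9.10% in the BRCA1-null tumors. By the same rule, members were 7.54% (Clopper-Pearson 6.35 to 8.88%) of 4T1 cells, 5 of 245 cells of BRCA1-null A and 55 of 2078 cells (2.65%) of BRCA1-null B. The PyMT tumors had 1 of 1947 cells and 0 of 1842 cells, where a count of 0 allows up to 0.163% by a floor of 3 counts and 0.200% by Clopper-Pearson. The Neu tumors had 0 of 2308 cells and 0 of 1997 cells, which allows up to 0.130% and 0.150% by the floor and 0.160% and 0.185% by Clopper-Pearson. Transplanted lines and spontaneous tumors each included a model with the higher and a model with the lower levels. 4T1 also differed from the other models in mouse strain, BALB/C against FVB, so strain and model cannot be told apart for it. Differences between models were not tested.

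**Figure D2:**
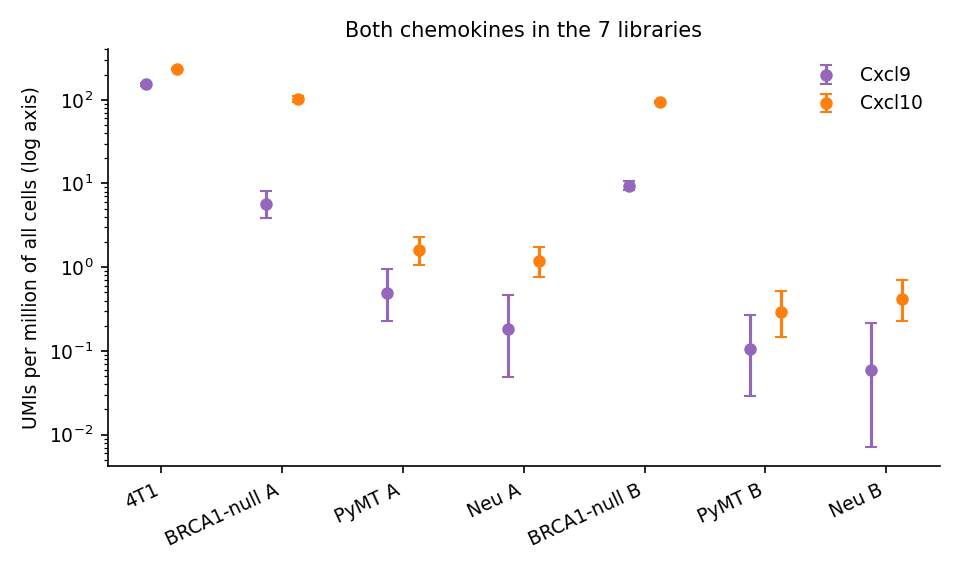
Levels of Cxcl9 and Cxcl10 in UPM of all cells in the 7 libraries, on a logarithmic axis, with 95% Poisson intervals of counting error. 4T1 stands at 153 for Cxcl9 and 232 for Cxcl10, the BRCA1-null tumors stand at 5.74 and 9.42 for Cxcl9 and 101 and 94.1 for Cxcl10, and the PyMT and Neu tumors all lie below 2.

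The members carried the epithelial genes of the tumor and almost no leukocyte transcripts. Epcam, the epithelial adhesion molecule, stood at 1255 UPM in members and 1376 in paired cells, a ratio of 0.91 (0.86 to 0.97). The keratins Krt8 and Krt18 had ratios of 0.82 (0.78 to 0.87) and 0.95 (0.91 to 1.00). Over single cells, the summed epithelial genes had a median of 101 per 10,000 UMIs in all members and of 113 in all cells without a chemokine UMI. Other epithelial genes went both ways. Keratin Krt17 was at 3.03 times (2.42 to 3.8), with 59.6% of its member UMIs in 5 cells, and Krt19 at 0.53 times (0.44 to 0.65). The tight junction genes Cldn4 and Cldn3 were at 1.86 (1.57 to 2.2) and 1.49 (1.25 to 1.77) times. Ptprc, which encodes CD45, had no UMI in members or paired cells, and neither had Csf1r, Adgre1, Itgam, Itgax, Flt3 or Cd3e. The 10 leukocyte markers summed to 84 UMIs in members and 52 in paired cells, of which 72 and 40 were Arhgdib, and 3 of the 10 had no UMI in members. The 14 macrophage markers summed to 79 and 66 UMIs, led by Cd14 with 41 and 28. Lyz2 had 8 UMIs in each class. Medians over single cells of the leukocyte and macrophage lists were 0 in both classes. Of the 10 dendritic cell markers, Batf3 was higher, at 3.49 times (1.89 to 6.84) with 49 and 14 UMIs, and Fscn1 stood at 1.44 times (1.20 to 1.74) and Zbtb46 had 12 and 7 UMIs, while Itgax, Flt3, Xcr1, Clec9a, Ccr7, Cd209a and Siglech were at 0. Irf8, which also marks dendritic cells, was thus found here beside defining dendritic cell genes at 0. Other lineages were as sparse, with 1 UMI over 12 T and NK cell markers, none over 6 B cell markers, 4 over 8 neutrophil markers, 6 over 8 fibroblast markers and 7 over 5 pericyte markers in members.

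Without the chemokines that set the rule, 200 of 6086 with at least 50 UMIs in both sums together were at least 2-fold higher in members with a counting interval above 1 (3.29% of the genes considered), and 62 were at least 2-fold lower (1.02%). The median ratio of the 6086 genes was 1.02. Lists of interferon, immune, cell state and lineage genes held 75 of the 200 and 5 of the 62. Which genes passed depended on the comparison cells. Against all comparison cells with every cell thinned to 3000 UMIs, 189 genes were higher and 135 lower, of which 88 and 18 were among those of the pairs, and the share of higher genes among those past 2-fold was 58.3% in place of 76.3%. Without matching the share was 64.9%. Across the pairs and 10 alternative settings of threshold, matching, filters and scaling with the same minimum of UMIs, 54 genes were higher and 4 lower in each. With 3 more settings chosen after the data had been seen, on the top cells and on proliferating cells, 40 genes were higher, among them 12 GTPases, 10 antiviral genes, Irf8 and Irf1, and the same 4 were lower. Of the 54, 36 belonged to the lists, among them 12 GTPases, 11 antiviral genes, 3 signaling genes, Irf8 and Irf1. The 4 lower genes were Dynap, Ggct, Ptgs2 and Car9.

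**Figure D3:**
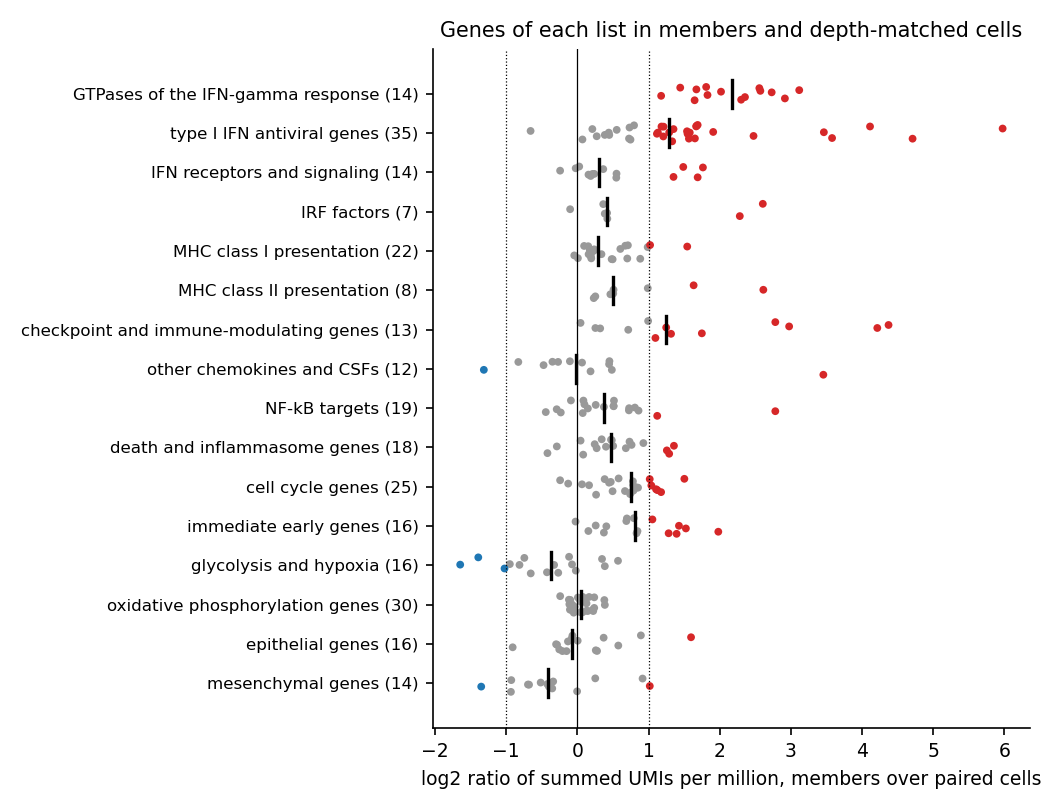
Log2 ratio of summed UPM, members over depth-matched cells, for each gene of 16 lists with at least 50 UMIs (number in brackets). Red and blue points are at least 2-fold higher or lower with a counting interval that leaves out 1, black bars are list medians and dotted lines mark 2-fold. The GTPases of the interferon gamma response lie wholly to the right of the line at 1, while the oxidative phosphorylation genes gather around 0.

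Among interferon regulatory factors, Irf8 and Irf1 stood out and the others did not. Irf8, a factor of the interferon gamma response and of myeloid development, had 440 UMIs in members and 72 in paired cells, or 249 and 40.9 UPM, a ratio of 6.09 (4.73 to 7.92). Over single cells Irf8 ran up to 22.9 per 10,000 UMIs with a median of 1.61 in members, and up to 4.33 with a median of 0 in paired cells, so that the classes overlapped. Irf1, which drives early interferon gamma targets, stood at 191 and 39.2 UPM, a ratio of 4.86 (3.74 to 6.4). A single member held 27.6% of its UMIs, and without the top cell of each class the ratio was 4.95. Irf7, the amplifier of the type I response, was at 1.31 times (1.08 to 1.58), Irf2 at 1.34, Irf3 at 1.34 and Irf9 at 1.29. Only Irf8 and Irf1 of 7 factors considered passed 2-fold, against 3.29% of all genes.

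The signal transducer Stat2 was higher, whereas the receptors and kinases upstream of it had ratios near 1. Stat2 had 133 UMIs in members and 39 in paired cells, a ratio of 3.40 (2.36 to 4.99). The feedback inhibitors Socs1 and Usp18 had ratios of 2.80 (2.15 to 3.69) and 2.55 (1.91 to 3.44). Of 14 genes considered in this list, 4 passed 2-fold, against 3.29% of all genes, and none was lower. The receptor chains Ifngr1 and Ifngr2 had ratios of 1.14 (0.80 to 1.62) and 0.98 (0.78 to 1.23), Ifnar1 and Ifnar2 of 0.85 (0.49 to 1.44) and 1.18 (0.79 to 1.76), and Jak1 and Jak2 of 1.16 (0.92 to 1.45) and 1.02 (0.80 to 1.30). The Ifnar1 value rests on only 28 and 33 UMIs.

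Interferon transcripts themselves were almost not captured. Ifng had no UMI in the tumor cells, and neither had the 5 interferon alpha genes measured. Members held 1 UMI of Ifnb1, 1 of Ifnk and 2 of Ifnl2, in 3 cells that stood at 48.4, 62.3 and 95.1 chemokine UMIs per 10,000. The cells without a chemokine UMI held 4 UMIs of Ifnk and 1 of Ifne, and the cells between held 3 of Ifnk. With counts this low no difference was detectable at this depth.

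The GTPases of the interferon gamma response, which attack the vacuoles of intracellular pathogens, were higher without exception. All 14 considered were at least 2-fold higher, against 3.29% of all genes, with a median ratio of 4.49 and a summed level of 2844 against 708 UPM, 4.02 times (3.78 to 4.28). Over single cells the summed level had a median of 25.1 per 10,000 UMIs in members and of 5.17 in the cells without a chemokine UMI. Igtp, an immunity-related GTPase, stood at 358 and 54.0 UPM, a ratio of 6.64 (5.34 to 8.32), and was captured in 110 of 131 members and 53 of 131 paired cells. The guanylate-binding proteins Gbp7 and Gbp8 had ratios of 5.94 (4.52 to 7.93) and 8.68 (3.97 to 22.5), and F830016B08Rik had 7.55 (4.66 to 12.9). Gbp2, the most modest, was at 2.26 times (1.96 to 2.62). The guanylate-binding proteins and immunity-related GTPases form gene families in which some genes are close copies, so UMIs may be split between those copies. The summed ratio ranged from 3.55 to 5.13 over the alternatives.

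Antiviral genes known mainly as type I interferon targets were higher in 23 of 35 cases, against 3.29% of all genes, and lower in none. Their median ratio was 2.45 and their summed ratio 1.49 (1.46 to 1.53). The sum was carried by Ifitm3, a membrane restriction factor that made up 6388 of its 16551 member UMIs and stood at 1.05 times (1.01 to 1.09). At the other end Oasl1, an OAS-like protein, had 316 UMIs in members and 5 in paired cells, a ratio of 63.0 (26.7 to 195). Rsad2, which encodes viperin, had 184 and 7 UMIs (26.2 times, 12.5 to 66.0), and Ifit1, a sensor of foreign RNA, had 330 and 19 UMIs (17.3 times, 10.9 to 29.1). Mx1, a dynamin-like restriction factor, had 40 UMIs in members and 0 in paired cells. Isg15, the ubiquitin-like modifier, stood at 827 and 256 UPM, 3.23 times (2.90 to 3.59). Ifit3 and Ifit3b, at 11.0 and 12 times, are close copies, and the split of their UMIs is uncertain. Oasl1 and Oasl2 are related genes, and the split of UMIs between them was not examined.

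The antiviral genes with the largest ratios were concentrated in few members, whereas the GTPases were spread over many. Oasl1 was captured in 34 of the 131 paired members, with 63.0% of its UMIs in 5 cells, Rsad2 in 29 with 59.2% and Ifit1 in 27 with 64.2%, whereas the 5 top cells held 15.6% of Igtp. Of all 132 members, 16 held a UMI of each of Oasl1, Ifit1 and Rsad2, 35 held 1 or 2 of them and 81 held none, a division made after the values had been seen. Among the cells without a chemokine UMI, 4 of 969 held all 3. Median depths of the 3 sets of members were 13797, 12693 and 14128 UMIs, and their median chemokine levels 40.6, 20.3 and 17.5 per 10,000 UMIs, so that they also differ in the measure that chose the members. Isg15 in the 16 cells stood at 2876 UPM against 318 in the 81 cells without the 3 genes. The 16 cells also stood higher in Ccl5 (1142 against 162 UPM), Irf1 (579 against 91.4) and the immediate early genes (10318 against 4393), and lower in the class II genes (5798 against 8729). The summed GTPases were higher in the 16 cells as well, at 3676 against 2479 UPM, and so was Irf8, at 320 against 211. Ubd was alike in both, at 285 and 272 UPM. The median share of Cxcl9 among the chemokine UMIs of a cell was 7.5% in the 16 cells and 38.5% in the 81.

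**Figure D4:**
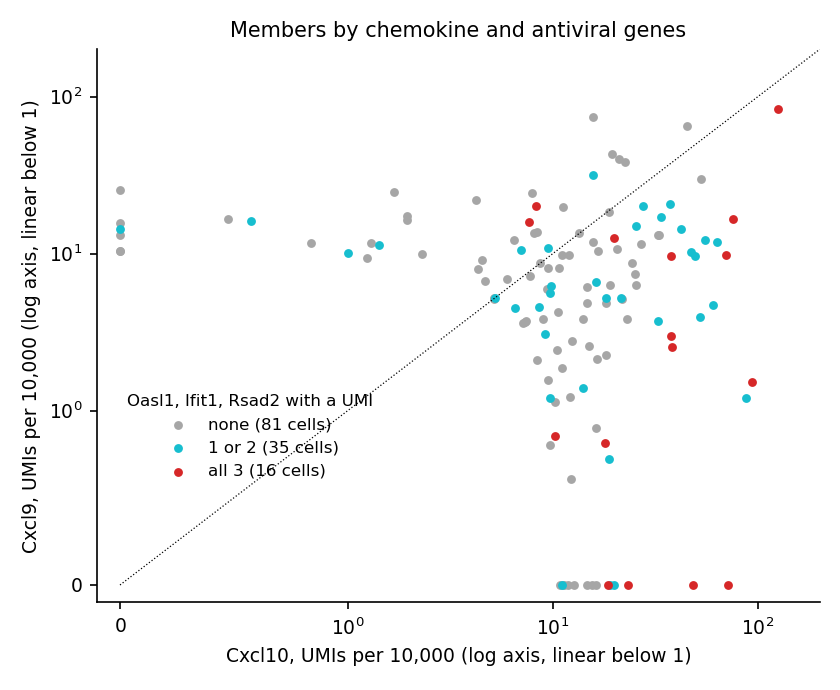
Each point is 1 of the 132 members, with Cxcl10 on the horizontal and Cxcl9 on the vertical axis in UMIs per 10,000 (logarithmic above 1, linear below), and the dotted line marks equal levels. Colors give how many of Oasl1, Ifit1 and Rsad2 had a UMI in the cell, and most of the 16 cells with all 3 lie below the line, where Cxcl10 exceeds Cxcl9.

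Among antigen presentation genes, the largest ratios were those of regulators and peptide loading steps rather than of the presenting molecules. Against 3.29% of all genes, 2 of the 22 class I genes considered passed 2-fold. These were Tap1, a chain of the peptide transporter, at 2.92 times (2.37 to 3.61), and Nlrc5, the transactivator of class I genes, at 2.03 times (1.25 to 3.38). The immunoproteasome subunit Psmb9 stood at 1.98 times (1.79 to 2.2). H2-K1, H2-D1 and B2m, which form the class I molecules, had ratios of 1.11 (1.06 to 1.16), 1.07 (1.04 to 1.1) and 1.12 (1.09 to 1.14). The class II list behaved likewise, with 2 of 8 genes past 2-fold. Ciita, the transactivator of class II genes, had 43 and 7 UMIs (6.12 times, 2.73 to 16.1), and H2-DMb2, a chain of the peptide exchange factor, had 162 and 52 (3.10 times, 2.26 to 4.33). H2-Aa and Cd74, already at 1028 and 3271 UPM in paired cells, were at 1.17 (1.1 to 1.25) and 1.19 (1.15 to 1.23) times. The class II chain H2-Eb1 was higher than these, at 1.42 times (1.34 to 1.51), near the list median of 1.42. The class II sum was 1.28 times that of paired cells (1.25 to 1.32) and ran from 1.21 to 1.41 over the alternatives.

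Genes that restrain or shape T cell responses were higher in 8 of 13 cases, against 3.29% of all genes. Cd274, which encodes the checkpoint ligand PD-L1, had 104 UMIs in 52 of 131 members and 5 UMIs in 5 of 131 paired cells, a ratio of 20.7 (8.60 to 65.1). Ubd, the ubiquitin-like modifier FAT10, stood at 295 and 15.9 UPM, 18.6 times (12.7 to 28.2). Ubd was captured in 86 members, with a median of 1.12 and a highest value of 58.2 per 10,000 UMIs, against at most 2.52 in paired cells. The serine protease inhibitor Serpina3g was at 7.87 times (6.12 to 10.3), the adhesion molecule Icam1 at 6.88 times (4.70 to 10.4) and the cytokine Il15 at 3.36 times (1.90 to 6.29). Ido1, which degrades tryptophan, and Wars, the tryptophan tRNA ligase, were at 2.49 and 2.37 times, and Nos2 was at 2.14 times. Cd47 and Vcam1 were at 1.03 and 1.19 times. Pdcd1lg2, Cd80 and Cd86 had no UMI. Serpina3g and Serpina3f belong to a family of near-identical copies.

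Of the other chemokines and colony-stimulating factors, Ccl5 was higher and Cxcl2 was lower, and 10 of the 12 considered did not pass 2-fold. Among all genes 3.29% were higher and 1.02% lower. Ccl5, an attractant of T cells, had 485 and 44 UMIs (11.0 times, 8.05 to 15.3), in 48 and 15 cells. Cxcl2, an attractant of neutrophils, stood at 179 and 445 UPM (0.40 times, 0.35 to 0.46), with 62.0% of its member UMIs in 5 cells. The neutrophil factor Csf3 was at 0.56 times (0.52 to 0.60), with medians over members of 2.80 per 10,000 UMIs, and Cxcl1 was at 0.72 times (0.69 to 0.75). Ccl2, a monocyte attractant, was at 1.05 times (0.93 to 1.17). Cxcr3, the receptor of Cxcl9 and Cxcl10, had 15 and 12 UMIs.

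Targets of NF-kB summed to 1.01 times (0.97 to 1.05), while their median ratio was 1.29 and 15 of 19 stood above 1. Among all genes considered the median ratio was 1.02. Past 2-fold were 2 of the 19, against 3.29% of all genes, namely Icam1, also counted above, and Nfkbiz at 2.18 times (1.66 to 2.87). Nfkbia, the inhibitor that NF-kB itself induces, was at 0.94 times (0.87 to 1.01). Of 18 death and inflammasome genes 3 passed, among them Zbp1, a sensor of nucleic acids, at 2.45 times (2.10 to 2.85) and Bbc3, a death-promoting gene, at 2.56 times. The complement proteases and components C1s1 and C4b, with 50 and 41 member UMIs, were at 5.53 (2.69 to 12.8) and 4.08 (2.01 to 9.14) times, whereas C3 was at 0.80 times. Immediate early genes, which respond within minutes to growth factors and stress, passed in 6 of 16 cases. Atf3, a stress-induced factor, stood at 704 and 178 UPM (3.95 times, 3.48 to 4.48), Btg2 at 2.88 times, Egr1 at 2.69 times and Fos at 2.63 times. Fos and Egr1 were uneven, with 49.9% and 51.9% of their member UMIs in 5 cells. The tumors were digested at 37 degrees before the sort, and the part of that step in these genes was not tested.

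Cell cycle genes were moderately higher in members. Mki67, a marker of dividing cells, had 130 and 75 UMIs, 1.73 times (1.29 to 2.33). The 25 genes considered had a median ratio of 1.69 with 6 past 2-fold, against 3.29% of all genes, and none lower. The summed ratio was 1.51 (1.43 to 1.6), and 2.38 with cells thinned to 3000 UMIs. The 6 were the replication genes Rrm2, Tyms, Mcm2, Mcm3 and Mcm6, at 2.02 to 2.26 times, and the mitotic motor Kif11 at 2.83 times. Ratios over 1 were found for 23 of the 25 genes, whereas the mitotic genes Ube2c and Ccnb1 were at 0.91 (0.72 to 1.15) and 0.85 (0.49 to 1.44). At least 2 of 8 proliferation markers had a UMI in 67 of 131 members (51.1%, Clopper-Pearson 42.3 to 60.0%) and in 38 of 131 paired cells (29.0%, 21.4 to 37.6%), at matched depth. Free RNA from cycling cells was not modelled, and its part in these counts was not tested. When pairs were formed within cells with and without these markers, a division chosen after the data had been seen, the summed cell cycle level was 1.05 times (0.99 to 1.1) and the GTPases stood at 4.57 times (4.28 to 4.88). The markers are themselves cell cycle genes, so a cell cycle level near 1 follows largely from this pairing. Among the 64 pairs of cells without 2 such markers the GTPases stood at 4.41 times (4.00 to 4.87) and the antiviral genes at 1.45 times (1.39 to 1.5). The summed cell cycle level in these pairs was 2.04 times.

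Genes of glycolysis and the hypoxia response tended to be lower, with a median ratio of 0.77 and 3 of 16 past 2-fold, against 1.02% of all genes. Car9, a carbonic anhydrase induced in hypoxia, had 42 and 131 UMIs (0.32 times, 0.22 to 0.46), Ero1l, an oxidase of the endoplasmic reticulum, was at 0.38 times (0.28 to 0.51) and P4ha1, a collagen prolyl hydroxylase, at 0.49 times (0.37 to 0.65). The glycolytic enzymes Pgk1 and Ldha were at 0.63 (0.57 to 0.71) and 0.74 (0.69 to 0.80) times, while Vegfa and Slc2a1, which are also hypoxia targets, were at 1.27 (0.93 to 1.74) and 1.31 (0.92 to 1.85) times. None of the 30 oxidative phosphorylation genes passed in either direction, and their sum was at 1.03 times (1.01 to 1.05). Of 14 mesenchymal genes 1 passed 2-fold in each direction. The calcium-binding S100a4 was lower at 0.39 times (0.35 to 0.44). Vim, the mesenchymal intermediate filament, was at 0.78 times (0.75 to 0.82).

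Outside the lists, the genes with the highest lower bounds were a mixture of even and of very uneven genes. Serpina3f had 94 UMIs in 40 members and 0 in paired cells, which is 31.2-fold higher than a floor of 3 counts over the class, with a lower bound of 24.9 from the counting interval. Batf2, a partner of Irf1, had 67 and 4 UMIs (16.7 times, 6.22 to 63.0) and Neurl3, a ubiquitin ligase, had 94 and 15 (6.24 times, 3.60 to 11.6). Fst, the activin antagonist follistatin, had 234 and 39 UMIs (5.98 times, 4.24 to 8.62). The milk protein Csn2 had 209 UMIs in members and 4 in paired cells, but 99.5% of them came from 1 cell, and without the top cell of each class its ratio was 0.33 (0.01 to 4.11). Csn1s2a, another milk protein, had 83.1% of its 302 UMIs in 1 cell and was at 1.69 times (1.05 to 2.74) without the top cells. Prl2c5, of the prolactin family and with close copies, had 66 UMIs in 9 members and 1 UMI in paired cells, and Sncg, a synuclein, had 124 in 20 and 16 in 5. Among the lower genes, Dynap stood at 0.14 times (0.09 to 0.22), the glutathione cycle enzyme Ggct at 0.27 times (0.21 to 0.35), the parathyroid hormone-related Pthlh at 0.38 times (0.29 to 0.49) and Ptgs2, which encodes cyclooxygenase 2, at 0.36 times (0.28 to 0.47). The abundant secreted genes Lgals3 and Spp1 were at 0.50 (0.47 to 0.53) and 0.51 (0.48 to 0.54) times.

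Along the whole range of chemokine levels, the GTPases and Irf8 stood higher in each band than in the one below, beginning well under the threshold. The summed GTPases stood at 684 UPM in the 969 cells without a chemokine UMI, 944 below 2 per 10,000, 1299 from 2 to 5, 1785 from 5 to 10, 2272 from 10 to 20, 2697 from 20 to 40 and 4290 at 40 or more. Irf8 went from 43.1 through 57.9, 105, 181, 188 and 208 to 457 UPM over the same bands. The order of the GTPases was graded, with no step at 10, whereas the counting intervals of Irf8 overlapped from 5 to 40 per 10,000. The antiviral list stood between 6308 and 8809 UPM in the bands below 40 and at 12948 in the 30 cells at 40 or more. Oasl1 stood at 571 UPM in those 30 cells, 33.2 from 20 to 40 and 74.2 from 10 to 20, out of order. H2-Aa was nearly flat, between 996 and 1302 UPM. Cell cycle genes stood at 808 in cells without a UMI and at 1401 in the band below 2, and had no order above that, with 1229 from 20 to 40 and 2283 at 40 or more. Bands differ in depth and are not matched.

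**Figure D5:**
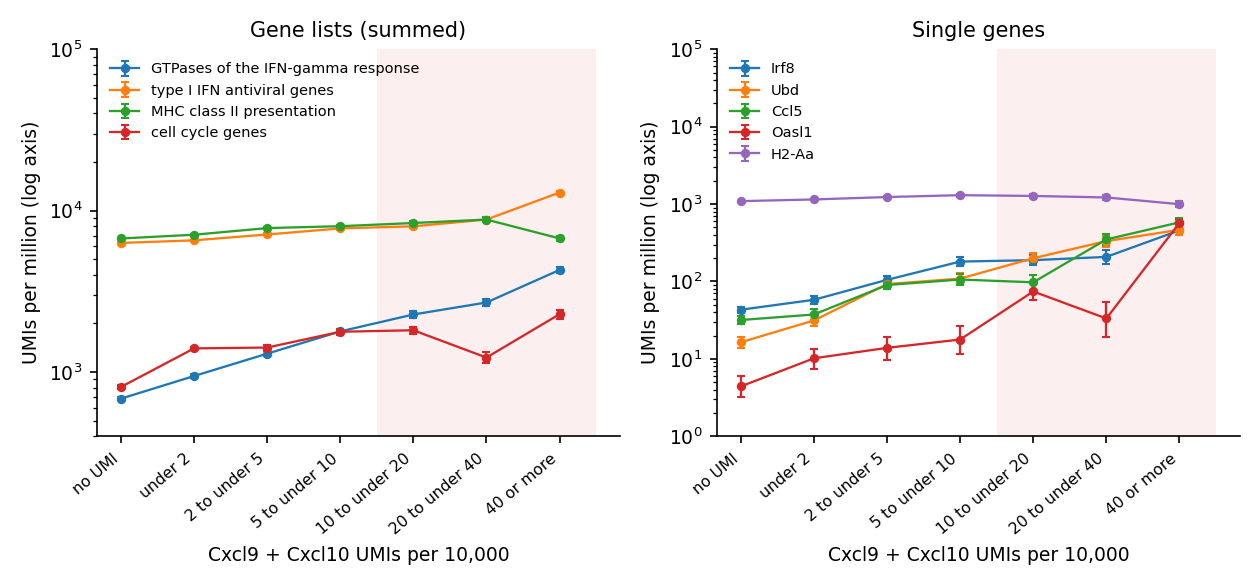
Levels in UPM (logarithmic) of 4 gene lists on the left and 5 genes on the right in 7 bands of Cxcl9 and Cxcl10 level, with 95% Poisson intervals of counting error and the bands of members shaded. The GTPases climb from 684 to 4290 across the bands, Oasl1 reaches 571 in the top band and H2-Aa stays between 996 and 1302.

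Members with at least as much Cxcl9 as Cxcl10 stood lower in the antiviral and immediate early genes than the rest, while single GTPases went both ways. There were 42 members led by Cxcl9, or with equal UMIs, and 90 led by Cxcl10, from which 40 pairs matched on depth were made. The median chemokine level was 17.4 per 10,000 UMIs in the first and 23.3 in the second. The summed GTPases were at 1.05 times in the cells led by Cxcl9 relative to those led by Cxcl10 (0.98 to 1.13), Igtp at 0.74 times (0.60 to 0.91) and Irf8 at 1.01 times (0.79 to 1.29). The antiviral list was at 0.79 times (0.76 to 0.83), Oasl1 at 0.06 times with 9 against 154 UMIs, Ifit1 at 0.05 times with 7 against 130 and Isg15 at 0.40 times (0.35 to 0.46). Irf1 was at 0.40 times (0.29 to 0.55), Ccl5 at 0.38 times (0.29 to 0.49), Cd274 at 0.32 times (0.17 to 0.58) and Atf3 at 0.39 times (0.33 to 0.45). In the other direction, Serpina3g was at 2.14 times (1.71 to 2.71), the gelatinase Mmp9 at 2.61 times (2.10 to 3.27), the GTPase Gbp4 at 1.68 times (1.37 to 2.06) and Cd74 at 1.21 times (1.14 to 1.29). Cxcl10-led cells and the 16 cells with 3 antiviral genes overlap, so these are not separate observations.

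With the listed genes left aside, members were spread among the other cells of the tumor, although they had more members near them than other cells had. Each cell was thinned to 3000 UMIs and its 20 nearest cells were found from 1000 variable genes without the listed genes. Of the neighbors of members 13.6% were members, against 4.61% for cells without a chemokine UMI and 6.44% for all 1685 cells, and 0 of 128 members had members as 10 or more of the 20 neighbors.

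The ISRE letters were more frequent in the windows of higher genes than in windows at large. The ISRE core was found in 3.44% of all 32851 windows and in 202 of 4849 considered genes with a window (4.17%). It was found in 39 of 152 higher genes (25.7%) and in 3 of 49 lower genes (6.12%). By list, it was found in 7 of 8 higher GTPases with a window, 11 of 18 higher antiviral genes and 0 of 6 higher cell cycle genes. The GAS letters were found in 7.88% of considered genes, 14.5% of higher genes and 14.3% of lower genes, and the kB letters in 7.71%, 7.24% and 4.08%. The windows of Oasl1 and Cd274, which had the largest ratios of their lists, held none of the 3 strings. Of the windows printed above, those of Cxcl10, Gbp2, Igtp and Ifit1 carry the ISRE letters and those of Irf8 and Igtp carry GAS letters.

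The same rule in BRCA1-null B gave 55 cells, which were paired on depth with 55 cells of that tumor without a chemokine UMI (medians 9963 and 9956 UMIs). There 142 of 3474 genes were at least 2-fold higher (4.09%) and 61 lower (1.76%), and 24 genes were higher in both tumors, 12% of the 4T1 genes and 16.9% of those of BRCA1-null B. Of the 200 higher genes of 4T1, 61 had enough UMIs to be considered there, and 24 of these 61 were higher, against 4.09% of all genes. The rest of the 200 could not be counted in that tumor. The GTPases were at 3.48 times (2.87 to 4.23), with 3 of 3 considered past 2-fold, and the antiviral genes at 2.10 times (2.01 to 2.21). Irf1 was at 4.49 times (2.49 to 8.67), Oasl1 at 13.4 times (6.83 to 30) and Ccl5 at 48.7 times (22.1 to 134). Ubd had 55 and 0 UMIs, and Irf8 had 36 and 3. The class II genes were near absent in that tumor, with 44 UMIs in each class, and Cd274 had 2 and 0 UMIs. Cell cycle genes were at 1.04 times (0.93 to 1.16), and Icam1 was at 0.82 times (0.71 to 0.93). In BRCA1-null B, endothelial markers had 96 and 3 UMIs and pericyte markers 693 and 66, and their part in the result was not tested, whereas in 4T1 these lists had 25 and 30 UMIs and 7 and 7 UMIs. The difference between the tumors, which also differ in mouse strain, was not tested, with 1 tumor of each.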

How the data were processed

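Tumor cells were dissociated, sorted and captured with the 10x Chromium 3′ v2 kit, which counts transcripts from their 3′ ends by UMI. The authors deposited filtered UMI count matrices, 1 per library, as whole-number counts of genes by barcodes, made with Cell Ranger on the mm10 (GRCm38) genome. The submitters' processing notes give Cell Ranger 2.2.0 for the 4T1 and replicate A libraries and 3.0.2 for replicate B, while each matrix header gives 3.0.2. For the aligner, no version is given in the sources used. Cell Ranger counts only reads that map to 1 gene, so close copies can lose or share UMIs, and the GFP of the line was not measured here.

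The count matrix of 4T1 held 1903 barcodes with 20389707 UMIs, of which 1751 cells with 20205082 UMIs had at least 1000 UMIs, at least 500 genes and under 20% mitochondrial UMIs (median 11067 UMIs). The 7 libraries held between 245 and 2308 such cells. Levels are UMIs per 1000000 UMIs of a class (UPM) or per 10,000 UMIs of a cell. Members were paired without replacement with the nearest unused comparison cell within 10% of total UMIs. Ratios of sums carry exact 95% intervals from the binomial split of the 2 counts, levels carry exact Poisson intervals and shares carry Clopper-Pearson intervals. These cover counting error only, because cells of 1 tumor are not replicates and no test between conditions was possible. A gene was called higher or lower at 2-fold or more with an interval that leaves out 1 and at least 50 UMIs over both sums. Cxcl9 and Cxcl10 were left out of these counts.

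The members, the gene lists and the motifs were chosen with earlier results of these data known. Genes were named by a fixed rule, which took Cxcl9, Cxcl10, Irf8, Irf1 and Mki67, up to 4 genes of each list with the largest absolute log2 ratio, defining markers near 0, and outside the lists up to 10 genes with the highest lower bound and up to 10 with the lowest upper bound. Other named genes stand for their role in a list and were chosen after their values were seen. Of the listed symbols, 5 were not analysed here, and some genes counted in the lists are not reported by name. Alternatives changed the threshold, the matching, the cell filters, the scaling and the minimum of UMIs. The comparison was run on simulated sums drawn with counting error only. These held no spread between cells, so they cannot show how the intervals behave for uneven genes. Python 3.11.15 was used with numpy 2.4.6, scipy 1.17.1, pandas 2.3.3, scanpy 1.11.5 for Scrublet, scikit-learn 1.9.0, scikit-image 0.26.0 and matplotlib 3.10.9.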

Additional observations from a re-analysis of the deposited data

How the results depend on the processing

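The member share of 7.54% became 13.6% at a threshold of 5 per 10,000 UMIs and 3.60% at 20. Higher genes numbered 386 without matching on depth, 330 with a minimum of 20 UMIs and 114 once cells with 2 proliferation markers were removed, against 200. Lower genes numbered 135 with thinning to 3000 UMIs, 209 without matching and 137 with a minimum of 20 UMIs, against 62. The GTPase ratio of 4.02 was 3.55 at a threshold of 5, 5.13 at 20, 4.57 when paired within proliferation class and 4.41 without proliferating cells. The antiviral ratio of 1.49 was 1.54 with thinning, 1.33 at 5, 1.72 at 20 and 1.45 without proliferating cells. The class II ratio of 1.28 was 1.21 with thinning and 1.21 without matching, 1.41 paired within proliferation class and 1.34 without proliferating cells. The cell cycle ratio of 1.51 was 2.38 with thinning, 2.18 without matching, 1.38 at 20, 1.05 paired within proliferation class and 2.04 without proliferating cells. Among values whose own interval left out 1, directions turned for the complement sum (0.822 with thinning, 0.898 without matching, 0.993 at 5, 0.978 without proliferating cells), the other chemokines (1.1 at 20, 1.09 paired within proliferation class), oxidative phosphorylation (0.977 at 20), Csn2 (0.332 at 20, 0.330 without the top cells) and Tyms (0.999 without proliferating cells). Of the lists whose own interval held 1, NF-kB targets (0.951 to 1.06), macrophage markers (0.948 to 1.41) and endothelial markers (0.583 to 1.28) ran across 1 over the settings. The cause was not tested. Pairing within proliferation class, removal of proliferating cells and removal of top cells were chosen after seeing the data. The test planned over the other libraries, with its other tools, scaling, filter, left-out libraries and block, was not run. No paired analysis was possible because 4T1 is 1 library without a test and only BRCA1-null B reached 20 pairs, while 3 libraries were needed. With 1 tumor, spread between tumors is unknown.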
